A study of Homo sapiens with 21 samples.

Results

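The genes described here are 35 genes of fatty acid and triglyceride synthesis, taken by symbol from a table of 37637 features, of which 24843 have a gene symbol. All 35 were found in the table, and 34 passed the filter on low counts. The exception was ME1, the cytosolic malic enzyme, which stood at 0.0689 CPM (counts per 1000000 counts of the library, after TMM scaling) on average in the control libraries and was at 0 in the 3 libraries of the highest dose. HepG2, a human hepatocellular carcinoma line, was kept for 24 h in serum-free DMEM with caffeine at 0.01, 0.1, 1, 10, 100 or 1000 µM, or with none in the control group. Each of the 7 groups has 3 cultures described as biological replicates, which gives 21 libraries of poly(dT)-purified RNA. Serum withdrawal applied to every group, the control included.

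In hepatocytes, citrate leaves the mitochondrion and is cleaved in the cytosol to acetyl-CoA, which acetyl-CoA carboxylase and fatty acid synthase build into palmitate. Elongases and desaturases then lengthen and unsaturate the chain, and acyltransferases, lipins and DGAT enzymes place the acyl chains on glycerol to give triglyceride, which is kept in lipid droplets or exported in very low density lipoprotein. The transcription factors SREBP-1 (gene SREBF1), ChREBP (MLXIPL) and the liver X receptors (NR1H2, NR1H3) are the textbook activators of this programme in liver.

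Hepatocyte identity was checked on 10 marker genes, all of which were at 1 CPM or more in every library, with ALB between 6110 and 15340 CPM. At 1000 µM against control AFP, ALB, FGB, SERPINA1 and TF were called lower and APOB and TTR higher. AFP went from 4810 to 6320 CPM in control to 1904 to 2200.0 CPM, ALB from 10450 to 15340 CPM to 6110 to 6552 CPM, FGB from 48.8 to 53.7 CPM to 18.2 to 22.1 CPM and TF from 4033 to 4203 CPM to 2272 to 2441 CPM. HNF4A was not called. The part of these changes in those of the lipid genes was not tested. Of 12 matched markers of stromal, endothelial, immune and fat cells, 10 stayed under 1 CPM in every library. CD68 and PDGFRB did not: CD68 lay between 18.2 and 71.7 CPM, and PDGFRB, a stromal marker, rose from 3.52 ± 0.308 CPM (SD, n = 3) in control to 20.0 ± 2.99 CPM (SD, n = 3) at 1000 µM, while COL1A1, COL1A2, DCN and LUM did not exceed 0.0591 CPM anywhere. In whole-culture RNA, fewer cells of a kind and less RNA per cell cannot be told apart.

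Libraries differed in a way that the dose groups do not explain. By the levels of the 13 mitochondrial mRNAs relative to each other, the libraries fell into 3 sets. The share of counts on these mRNAs, given for each set, did not define the sets. Set A holds all control, 0.01 and 0.1 µM libraries and replicates 1 and 2 of 1 µM, with 9.93 to 14.2% of counts on these mRNAs. Set B, with 4.70 to 4.93%, holds replicate 3 of 1 µM, all of 10 µM, replicate 2 of 100 µM and replicates 1 and 2 of 1000 µM. Set C holds replicates 1 and 3 of 100 µM and replicate 3 of 1000 µM, with 11.7 to 12.8%. No library at 100 or 1000 µM is in the control libraries' set, so differences of the main members from control are given with a second value. It comes from the fit with library set as a term, which links sets A and B only through the 1 µM group. There replicate 3 is the sole library in set B, so each such value against control from 10 µM up hangs on that library. Sets B and C each hold 100 and 1000 µM libraries, so 1000 µM was also compared with 100 µM inside each, and with 10 µM inside set B.

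A difference was called when its Benjamini-Hochberg adjusted p, over all 17951 features tested by edgeR's quasi-likelihood test, was under 0.05. At 1000 µM 27 of 34 members were called against control, 22 lower and 5 higher, where 57.6% of all features were called, 29.1% lower and 28.5% higher. The median log2 fold change was -0.48 over the members and -0.01 over all features. The fit with library set as a term called 20 members, 16 lower and 4 higher, against 38.0% of features (19.8% lower and 18.2% higher). The largest falls among members at 1 CPM or more were those of FADS2, PNPLA3, FASN, SLC25A1 and SCD, and the 5 members that rose were LPIN2, GPAM, AGPAT3, PLIN2 and NR1H3.

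Lower doses moved fewer members, and at 100 µM the directions were mixed. At 0.01, 0.1 and 1 µM no member was called by edgeR, where 0.0279%, 0.0% and 0.106% of features were. At an unadjusted p under 0.05, 6, 4 and 6 members passed at these doses, as did 15.0%, 9.48% and 15.7% of features. DESeq2's Wald test called 2, 0 and 0, limma-voom called 0 at each, and the fit with library set as a term called FADS3 alone at 0.01 µM and no member at 0.1 and 1 µM, where it called 3.02%, 0.0223% and 0.629% of features. At 10 µM 5 members were called, all higher (ACSS2, ELOVL6, FADS1, LPIN1 and LPIN2), against 14.8% of features in either direction and 7.27% higher, and 0 with library set as a term, where 0.0279% of features were called and 1 member had an unadjusted p under 0.05, as did 4.94% of features. The count at 10 µM was 1 without replicate 3 of that dose, 3 and 2 without control replicates 1 and 2, and 10 without 1000 µM replicate 3. At 100 µM 18 were called, 10 higher and 8 lower, against 46.6% of features (23.6% higher and 22.9% lower), and 8 with library set as a term, against 17.3%. The members' median log2 fold change at 100 µM was -0.002, and that of all features was -0.01.

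**Figure D1:**
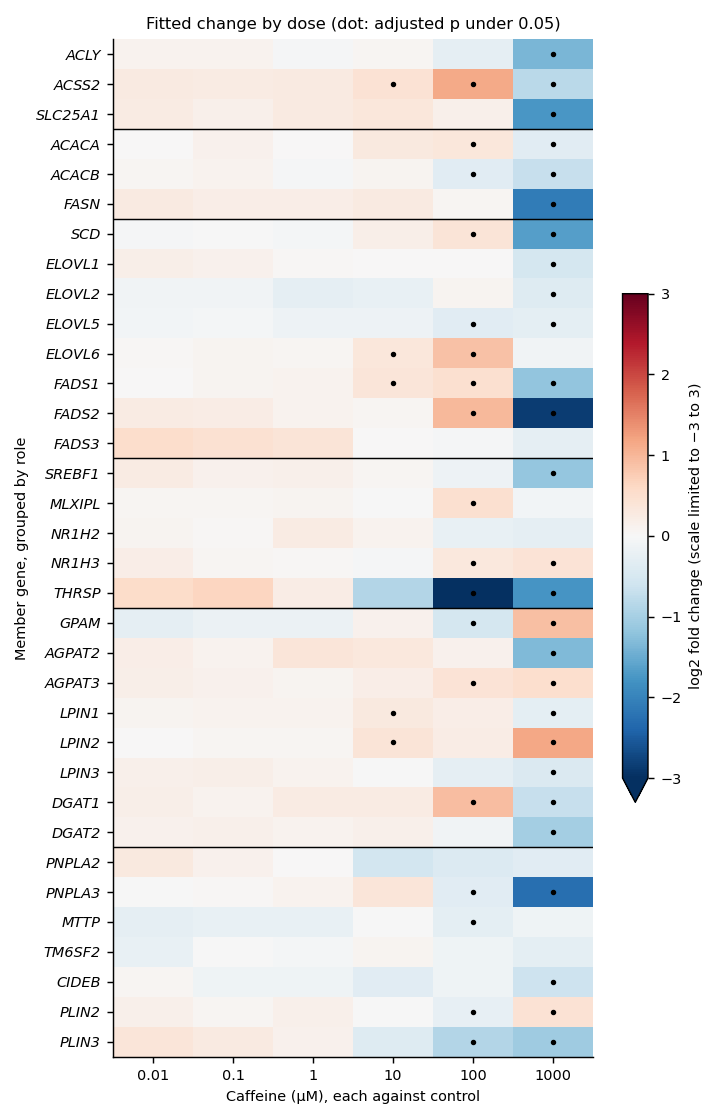
Heat map of the fitted log2 fold change of the 34 tested members (rows, grouped by role) at each caffeine dose in µM against control (columns), with a dot where the adjusted p was under 0.05. Colour limits are -3 and 3. The columns up to 1 µM hold no dot, and the 1000 µM column holds 27.

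DNA before annotated start sites is shown for 5 members called lower at 1000 µM (SCD, ACLY, SLC25A1, ACSS2 and SREBF1) and 2 called higher (GPAM and AGPAT3), so that stretches with and without the motif marked in them stand side by side for each direction. The letters are RefSeq sequence of build GRCh38.p14, on the gene's strand from 5′ to 3′, from the 250 bases before a start site, cut back to the part outside exons annotated in GENCODE 29. Capitals mark the motif CCAAT or its reverse complement ATTGG, the core of the box bound by NF-Y, a general factor known to act with SREBP at lipid gene promoters. The stretches lie at chr10:100346983-100347123 on the plus strand for SCD, chr17:41919023-41919272 on the minus strand for ACLY, chr22:19178831-19178986 on the minus strand for SLC25A1, chr20:34874739-34874941 on the plus strand for ACSS2, chr17:17837003-17837236 on the minus strand for SREBF1, chr10:112183766-112184015 on the minus strand for GPAM and chr21:43916538-43916787 on the plus strand for AGPAT3. Those of SCD, SLC25A1 and SREBF1 lie just outside the gene as GENCODE 29 annotates it, and those of ACLY, ACSS2, GPAM and AGPAT3 lie inside it, between exons, before an internal start site.
SCD: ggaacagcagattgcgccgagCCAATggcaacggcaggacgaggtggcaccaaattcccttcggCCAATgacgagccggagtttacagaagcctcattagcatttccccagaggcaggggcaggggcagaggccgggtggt
ACLY: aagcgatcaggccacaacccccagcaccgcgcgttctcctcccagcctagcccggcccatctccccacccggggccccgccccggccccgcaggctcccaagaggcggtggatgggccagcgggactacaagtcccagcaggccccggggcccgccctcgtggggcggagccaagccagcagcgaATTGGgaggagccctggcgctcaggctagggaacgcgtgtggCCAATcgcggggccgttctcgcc
SLC25A1: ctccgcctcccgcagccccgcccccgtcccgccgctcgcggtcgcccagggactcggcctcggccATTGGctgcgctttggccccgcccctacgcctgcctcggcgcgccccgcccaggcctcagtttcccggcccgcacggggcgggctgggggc
ACSS2: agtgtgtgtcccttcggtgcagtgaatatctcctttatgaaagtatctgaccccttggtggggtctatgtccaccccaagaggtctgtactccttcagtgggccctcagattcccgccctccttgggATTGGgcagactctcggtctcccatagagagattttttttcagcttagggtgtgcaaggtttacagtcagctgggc
SREBF1: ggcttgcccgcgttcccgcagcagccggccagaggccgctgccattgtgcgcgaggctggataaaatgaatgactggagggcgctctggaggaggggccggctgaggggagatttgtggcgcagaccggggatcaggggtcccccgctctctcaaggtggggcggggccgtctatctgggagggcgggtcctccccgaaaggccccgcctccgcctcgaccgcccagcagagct
GPAM: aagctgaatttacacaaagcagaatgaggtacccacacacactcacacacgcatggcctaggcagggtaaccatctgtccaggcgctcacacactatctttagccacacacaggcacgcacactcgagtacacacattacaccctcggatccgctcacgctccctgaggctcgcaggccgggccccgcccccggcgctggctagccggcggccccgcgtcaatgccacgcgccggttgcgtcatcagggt
AGPAT3: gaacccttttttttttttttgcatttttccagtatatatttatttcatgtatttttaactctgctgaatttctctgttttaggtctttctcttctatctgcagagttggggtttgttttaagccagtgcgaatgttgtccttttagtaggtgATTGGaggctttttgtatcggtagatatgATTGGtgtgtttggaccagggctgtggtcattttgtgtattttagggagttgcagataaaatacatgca

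SCD, ACLY and AGPAT3 hold 2 matches each in these stretches, SLC25A1 and ACSS2 hold 1 each, and SREBF1 and GPAM hold 0. ACSS2, ACLY and AGPAT3 each have a second start site in the promoter table. The ACSS2 stretch there, at chr20:34876362-34876434, holds 0 matches, the ACLY stretch, at chr17:41919023-41919201 and thus within the one shown, holds 2, and the AGPAT3 window, chr21:43925148-43925397, is exon throughout and left no stretch. Counting every start site of a gene, a match lay in the stretches of 7 of 16 members called lower at 1000 µM (ACACA, ACACB, ACLY, ACSS2, SCD, SLC25A1 and THRSP), 1 of 5 called higher (AGPAT3) and 3 of 7 not called (FADS3, MTTP and TM6SF2). Those called lower without one were AGPAT2, ELOVL1, ELOVL2, ELOVL5, FADS1, FADS2, LPIN1, PLIN3 and SREBF1. Over windows of 300 bases around the start site, searched on both strands, 20 of the members' 45 entries in the promoter table hold CCAAT (44.4%), as do 34.6% of 35116 promoters of the same length. The 45 entries belong to 30 members, of which 18 hold CCAAT in at least 1 entry, GPAM through a match outside the stretch shown. FASN, DGAT1, DGAT2, PNPLA3 and LPIN3 were not analysed here for motifs. The SREBP site core TCACNCCA is in 3 entries (6.67%; ME1, PLIN3 and PNPLA2), against 3.95% of promoters. The E-box CACGTG is in 3 entries (6.67%; ELOVL5, LPIN2 and PLIN2), against 7.26%, and the cyclic AMP response element TGACGTCA in 2 (4.44%; ELOVL5 and FADS1), against 1.85%. None of these 4 motifs contains another. A match here is a description of the letters and not a binding site.

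Of genes that supply acetyl-CoA to the cytosol, the 3 tested were all called lower at 1000 µM, as were 29.1% of all features. With all libraries ACSS2 alone of them was called at 100 µM, where it was higher, as were 23.6% of features. ACLY, the ATP citrate lyase that cleaves citrate, had 499, 480 and 395 CPM in the control libraries and 414 to 519 CPM in the 9 libraries from 0.01 to 1 µM. It then had 476, 459 and 496 CPM at 10 µM and 337, 462 and 342 CPM at 100 µM, where the set B library was the high one and the 2 set C libraries were the low ones. At 1000 µM it had 188, 188 and 159 CPM, below every other library. Its fold change at 1000 µM was 2.57-fold lower than control (log2 -1.36 ± 0.114 SE, adjusted p = 6.51e-09), and -1.28 ± 0.147 with library set as a term. At 100 µM it was not called (-0.27 ± 0.112, adjusted p = 0.0566), but was called lower without control replicate 3 (-0.35, adjusted p = 0.0184), without 100 µM replicate 2 (-0.43, adjusted p = 0.002) or without 1000 µM replicate 3 (-0.27, adjusted p = 0.0433). Library set as a term gave -0.09 there, not called (adjusted p = 0.774). ACLY was 1 of 7 members whose level differed between library sets at a given dose (adjusted p = 0.016), beside CIDEB, PNPLA3, GPAM, ELOVL2, PNPLA2 and MLXIPL. Of all features, 29.6% did so.

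SLC25A1 is the carrier that brings citrate out of the mitochondrion. Its control libraries had 97.7, 99.3 and 71.8 CPM, replicate 3 being the low one. Levels ran from 93.8 to 125 CPM between 0.01 and 1 µM, were 119, 120 and 104 CPM at 10 µM and 98.3, 100.4 and 98.2 CPM at 100 µM. These libraries lay inside the control range or above it. At 1000 µM they were 22.6, 20.4 and 37.9 CPM, under all other libraries, with the set C library above the 2 of set B. The difference from control was 3.34-fold (log2 -1.74 ± 0.178 SE, adjusted p = 1.39e-07). It was -2.24 ± 0.256 with library set as a term and -2.41 ± 0.127 against 10 µM within set B.

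ACSS2, which makes acetyl-CoA from acetate, was higher than control at 10 and 100 µM and lower at 1000 µM. It had 59.1, 67.6 and 60.7 CPM in control and 70.2 to 79.1 CPM between 0.01 and 1 µM. It had 88.0, 81.4 and 84.9 CPM at 10 µM and 133, 149 and 132 CPM at 100 µM, above all control libraries at each of these doses. At 1000 µM it fell to 33.0, 32.8 and 40.8 CPM, below all of them. Against control, the log2 fold change was 0.44 at 10 µM (adjusted p = 0.00469), 1.14 ± 0.088 at 100 µM (adjusted p = 7.23e-09) and -0.82 ± 0.089 at 1000 µM (adjusted p = 2.34e-07). Library set as a term gave 1.00 ± 0.162 at 100 µM and -0.94 ± 0.153 at 1000 µM, both called, and no call at 10 µM.

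Fatty acid synthase and the carboxylases were lower at 1000 µM, FASN by far the most. FASN, the enzyme that assembles palmitate, had 1333, 1260 and 754 CPM in control, so replicate 3 stood well under the other control libraries, and 1160 to 1448 CPM between 0.01 and 1 µM. It had 1379, 1384 and 1266 CPM at 10 µM and 1086, 1225 and 1156 CPM at 100 µM. The 1000 µM libraries had 204, 205 and 377 CPM, the last being the set C library. All 3 lay under the lowest control. The fold change was 4.26-fold lower (log2 -2.09 ± 0.212 SE, adjusted p = 1.57e-07), -2.53 ± 0.350 with library set as a term and -2.71 ± 0.181 against 10 µM within set B.

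ACACA, the cytosolic acetyl-CoA carboxylase, moved little beside FASN. It had 129, 120 and 114 CPM in control, 104 to 141 CPM between 0.01 and 1 µM, 146, 134 and 164 CPM at 10 µM and 139, 175 and 142 CPM at 100 µM. The 1000 µM values of 98.7, 104 and 84.4 CPM lay below every control library. The log2 fold change was 0.33 ± 0.116 at 100 µM (adjusted p = 0.0245) and -0.34 ± 0.116 at 1000 µM (adjusted p = 0.0182), and neither call was kept with library set as a term (adjusted p = 0.106 and 0.164). Leaving out control replicate 1 or 1000 µM replicate 3 also ended the call at 1000 µM (adjusted p = 0.0695 and 0.0767). At 100 µM the call ended without control replicate 2 or 3 or without 100 µM replicate 2, whose omission took the value to 0.22. Between 100 and 1000 µM ACACA fell by 0.67 ± 0.116 (adjusted p = 1.20e-04). ACACB, the mitochondrial-membrane carboxylase whose product restrains fatty acid oxidation, was lower at 1000 µM (17.5 to 19.6 CPM against 25.2 to 33.4 CPM in control, log2 -0.68 ± 0.124, adjusted p = 1.1e-04, or -0.53 ± 0.198 and called with library set as a term). At 100 µM it had 20.5, 27.9 and 21.2 CPM, the set B library lying inside the control range, and was called lower (-0.33 ± 0.123, adjusted p = 0.0324). That call ended with library set as a term (-0.11, adjusted p = 0.775) and without control replicate 1 or 2 or 100 µM replicate 1 or 3 (adjusted p from 0.0698 to 0.175).

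Of 8 elongation and desaturation genes, 4 were called higher and 1 lower at 100 µM, against 23.6% and 22.9% of all features. With library set as a term 3 were higher and 0 lower there, against 17.3% of features in either direction, and the lower one, ELOVL5, had an adjusted p of 0.259. At 1000 µM 6 were called lower and 0 higher, against 29.1% and 28.5% of features. With library set as a term 4 were lower and 0 higher, against 19.8% and 18.2%. SCD, the stearoyl-CoA desaturase that makes monounsaturated fatty acids, was the most abundant member per length of transcript, at 625 CPM per kilobase of annotated exon in control. It was followed by PLIN2 at 140.6 and FASN at 119 CPM per kilobase. SCD had 3287, 3265 and 3507 CPM in control and 2949 to 3535 CPM between 0.01 and 1 µM. It had 3662, 3712 and 4048 CPM at 10 µM and 4311, 4312 and 4419 CPM at 100 µM, all above the highest control. It stood at 1010, 1077 and 1090 CPM at 1000 µM, under all others and with the set C library next to those of set B. The 1000 µM difference was 3.17-fold (log2 -1.66 ± 0.080 SE, adjusted p = 4.23e-12). The rise at 100 µM (0.37 ± 0.078, adjusted p = 6.93e-04) was not called with library set as a term (0.19, adjusted p = 0.398), and the fall at 1000 µM was (-1.84 ± 0.128).

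FADS2 had the lowest log2 fold change of the members at 1000 µM against control, and PNPLA3 had it with library set as a term. FADS2 encodes the desaturase of the entry step from dietary essential fatty acids to long polyunsaturated ones, and lies at chr11:61792980-61867354 on the plus strand. The control libraries had 178, 191 and 139 CPM, those between 0.01 and 1 µM had 159 to 213 CPM and those at 10 µM had 180, 173 and 174 CPM. At 100 µM all 3 were higher, with 334, 321 and 333 CPM, in set B and set C alike. At 1000 µM all 3 were far lower, with 21.5, 21.0 and 28.6 CPM. The rise at 100 µM was 0.96 ± 0.118 on the log2 scale (adjusted p = 2.41e-06), or 1.09 ± 0.186 with library set as a term. The fall from control to 1000 µM was 7.16-fold (log2 -2.84 ± 0.127, adjusted p = 1.33e-12), or -2.65 ± 0.174 with library set as a term. From 100 to 1000 µM FADS2 was 13.9-fold lower (log2 -3.80 ± 0.132, adjusted p = 1.39e-13), with -3.92 ± 0.133 inside set B and -3.55 ± 0.163 inside set C.

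FADS1, a desaturase that acts further along the same route, lies beside it at chr11:61799625-61829318 on the minus strand. Exons of the 2 genes overlap in the annotation: 5.57% of FADS1 exon bases and 4.89% of those of FADS2 are shared with other genes, each other included, and whether strand was used in counting is not given in the sources used here. FADS1 had 271, 269 and 259 CPM in control, 247 to 309 CPM between 0.01 and 1 µM, 335, 328 and 359 CPM at 10 µM and 357, 399 and 367 CPM at 100 µM. At 1000 µM it had 119, 123 and 107 CPM. Its libraries were above all controls at 10 and 100 µM and below all at 1000 µM. The log2 fold change was 0.35 at 10 µM (adjusted p = 0.0111), 0.49 ± 0.085 at 100 µM (adjusted p = 1.04e-04) and -1.19 ± 0.086 at 1000 µM (adjusted p = 7.81e-10). With library set as a term the 100 and 1000 µM values were 0.42 ± 0.135 and -1.32 ± 0.126, both called.

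ELOVL6, which lengthens palmitate to stearate, was higher at 100 µM and not called at 1000 µM. It had 46.0, 48.1 and 57.4 CPM in control, 47.5 to 56.6 CPM between 0.01 and 1 µM and 63.2, 62.5 and 66.3 CPM at 10 µM. It reached 90.0, 94.8 and 92.7 CPM at 100 µM and was at 45.8, 51.4 and 44.0 CPM at 1000 µM, where 2 libraries lay under the lowest control and 1 inside the control range. The rise at 100 µM was 0.87 ± 0.088 (adjusted p = 2.11e-07), or 0.84 ± 0.161 with library set as a term. The value at 1000 µM was -0.10 ± 0.088 and not called, with a 95% interval of -0.27 to 0.07. The fall from 100 to 1000 µM was called at -0.97 ± 0.088 (adjusted p = 4.43e-08).

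The remaining elongases and FADS3 moved by less than 1 on the log2 scale at every dose. ELOVL1, which extends saturated chains to very long ones, was called lower at 1000 µM at -0.53 ± 0.100 (adjusted p = 1.76e-04), or -0.47 ± 0.149 and called with library set as a term. ELOVL2 and ELOVL5, which extend polyunsaturated chains, were called lower there at -0.40 ± 0.126 and -0.28 ± 0.066, and neither was called with library set as a term (adjusted p = 0.0883 and 0.315). The ELOVL2 call also ended without control replicate 3 (adjusted p = 0.0811) or without 1000 µM replicate 1 (adjusted p = 0.0639). FADS3 had 6.33 to 10.7 CPM at 1000 µM against 7.21 to 10.7 CPM in control and was not called at 1000 µM (-0.26 ± 0.166, adjusted p = 0.184). Without control replicate 3 or without 1000 µM replicate 3 it was called lower, at -0.42 and -0.52.

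**Figure D2:**
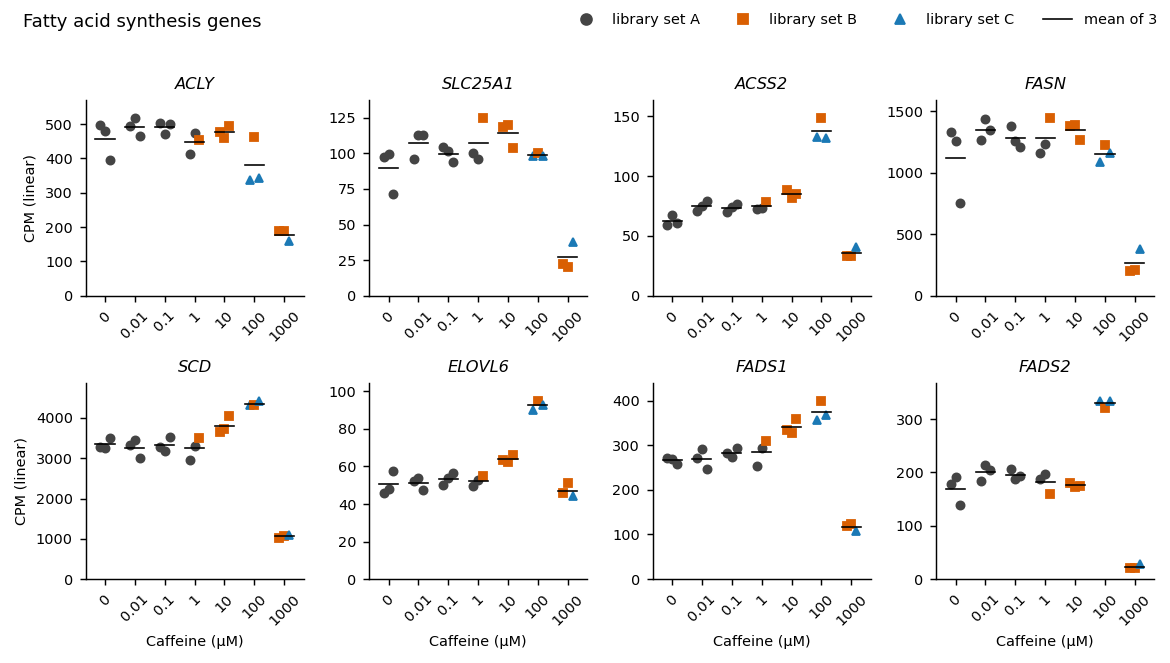
CPM (linear axis from 0) of 8 fatty acid synthesis genes in each of the 21 libraries, by caffeine dose in µM. Symbols mark library sets A, B and C, and bars mark the mean of 3. The 1000 µM libraries lie under all control libraries for every gene shown except ELOVL6, and those of ACSS2, SCD, ELOVL6, FADS1 and FADS2 at 100 µM lie above all of them.

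Among the regulators at 1000 µM, SREBF1 and THRSP were called lower and NR1H3 higher, while MLXIPL and NR1H2 were not called with all libraries. SREBF1 had 89.8, 86.0 and 59.1 CPM in control, 80.5 to 102 CPM between 0.01 and 1 µM, 83.9, 87.6 and 74.6 CPM at 10 µM and 67.4, 77.6 and 67.7 CPM at 100 µM, which lay inside the control range. The 1000 µM libraries had 30.8, 28.9 and 45.8 CPM, all under the lowest control. The fall was 2.23-fold (log2 -1.16 ± 0.155, adjusted p = 3.22e-06), or -1.29 ± 0.274 with library set as a term. Within sets, 1000 against 100 µM gave -1.38 ± 0.169 in set B and -0.56 ± 0.182 in set C. The difference between these was not called with all libraries and the filter on low counts. It was called with no filter and without control replicate 3.

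MLXIPL encodes ChREBP, which responds to glucose. It had 62.4, 63.6 and 51.1 CPM in control, 53.2 to 68.2 CPM between 0.01 and 1 µM, 60.2, 61.4 and 53.7 CPM at 10 µM, 86.3, 76.8 and 85.1 CPM at 100 µM and 52.0, 43.1 and 73.8 CPM at 1000 µM. The 100 µM libraries were all above control, and those at 1000 µM spread across it, with the set C library the highest. The rise at 100 µM was 0.48 ± 0.145 (adjusted p = 0.0103) and was not called with library set as a term (0.26, adjusted p = 0.469). At 1000 µM the value was -0.07 ± 0.145 (adjusted p = 0.69), and without replicate 3 of that dose it was called at -0.32 (adjusted p = 0.0291).

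NR1H3, liver X receptor alpha, was called higher at 100 and 1000 µM (0.31 ± 0.100 and 0.41 ± 0.100) at 11.9 to 19.2 CPM across these doses and control. Library set as a term gave 0.41 at 1000 µM with an adjusted p of 0.0834 and 0.32 at 100 µM with an adjusted p of 0.285. The call at 100 µM also ended without control replicate 3 (adjusted p = 0.0552) or 100 µM replicate 2 (adjusted p = 0.0582). NR1H2, liver X receptor beta, was not called at any dose against control with all libraries. Its value at 1000 µM was -0.26 ± 0.117 (adjusted p = 0.0635), or -0.50 ± 0.197 with library set as a term (adjusted p = 0.053). It was called lower at 1000 µM without control replicate 3 (-0.39) or without 1000 µM replicate 3 (-0.33).

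THRSP, the lipogenic protein also known as Spot 14, was near the limit of detection, and its values rest on few counts. It had 0.825, 1.19 and 0.690 CPM in control, 0.911 to 1.79 CPM between 0.01 and 1 µM and 0.437, 0.411 and 0.639 CPM at 10 µM. It had 0.112, 0.0853 and 0.0882 CPM at 100 µM and 0.383, 0.177 and 0.207 CPM at 1000 µM. Every library from 10 µM up lay under the lowest control. The log2 fold change was -3.23 ± 0.394 at 100 µM (adjusted p = 2.27e-06) and -1.77 ± 0.335 at 1000 µM (adjusted p = 1.67e-04). In the fit with library set as a term these were -2.82 ± 0.665, called, and -1.40 ± 0.562, not called (adjusted p = 0.0564). The rise from 100 to 1000 µM (1.46 ± 0.450, adjusted p = 0.0126) was lost without 1000 µM replicate 1 (adjusted p = 0.231) or without 100 µM replicate 2 (adjusted p = 0.0562).

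Glycerolipid assembly genes moved in both directions at 1000 µM. All 8 were called there, where 57.6% of all features were, with AGPAT3, GPAM and LPIN2 higher and AGPAT2, DGAT1, DGAT2, LPIN1 and LPIN3 lower. With library set as a term only LPIN3 was not called (-0.28, adjusted p = 0.258), and 38.0% of features were called. GPAM, the mitochondrial glycerol-3-phosphate acyltransferase that starts the route, had 495, 448 and 531 CPM in control, 376 to 488 CPM between 0.01 and 1 µM and 534, 505 and 580 CPM at 10 µM. At 100 µM it had 317, 386 and 321 CPM, under every control library. At 1000 µM it had 1002, 1054 and 706 CPM, above every control library, the lowest being the set C library. The change was -0.53 ± 0.127 at 100 µM (adjusted p = 0.00233) and 0.91 ± 0.128 at 1000 µM (adjusted p = 6.09e-06), or -0.53 ± 0.154 and 0.75 ± 0.148 with library set as a term, both called. From 100 to 1000 µM GPAM rose by 1.43 ± 0.129, with 1.41 ± 0.121 in set B and 1.15 ± 0.110 in set C.

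The next step, from lysophosphatidic to phosphatidic acid, is carried by AGPAT2 and AGPAT3, which were called in opposite directions at 1000 µM. AGPAT2, whose loss causes congenital lipodystrophy, had 46.1, 47.1 and 37.9 CPM in control, 44.6 to 65.0 CPM between 0.01 and 1 µM, 54.5, 59.0 and 49.6 CPM at 10 µM and 44.5, 54.0 and 44.7 CPM at 100 µM. It stood at 15.6, 15.9 and 21.2 CPM at 1000 µM, under all others. The fall was 2.49-fold (log2 -1.32 ± 0.136, adjusted p = 1.17e-07), or -1.65 ± 0.219 with library set as a term. AGPAT3 rose from 44.6 to 50.7 CPM in control to 62.2 to 65.7 CPM at 100 µM and 65.3 to 69.7 CPM at 1000 µM, at both doses above every control library. The ranges of these 2 doses overlap, and the difference between them was not called (0.10 ± 0.071, adjusted p = 0.267). Its changes against control were 0.41 ± 0.071 and 0.51 ± 0.071 (adjusted p = 1.23e-04 and 5.72e-06), and both were called with library set as a term.

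Lipins remove the phosphate to give diacylglycerol. LPIN2, the lipin abundant in liver, had 102, 93.7 and 99.0 CPM in control, 86.1 to 119 CPM between 0.01 and 1 µM, 125, 122 and 139 CPM at 10 µM and 104, 124 and 116 CPM at 100 µM. At 1000 µM it had 220, 231 and 210 CPM, above all other libraries and alike in sets B and C. The rise was 1.16 ± 0.102 (adjusted p = 1.20e-08), or 0.88 ± 0.149 with library set as a term. LPIN1, which also acts as a transcriptional coactivator, had 40.1, 39.4 and 40.0 CPM in control, 35.7 to 46.3 CPM between 0.01 and 1 µM, 48.3, 47.4 and 50.7 CPM at 10 µM and 46.5, 47.1 and 44.6 CPM at 100 µM. The 1000 µM libraries had 33.5, 31.99 and 31.4 CPM, below control (-0.30 ± 0.087, adjusted p = 0.00604, or -0.44 ± 0.148 and called with library set as a term). LPIN3 was called lower at 1000 µM (-0.44 ± 0.109, adjusted p = 0.00176), and 13.5% of its exon bases are shared with EMILIN3, so its counts are uncertain.

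Both DGAT genes, whose enzymes attach the last acyl chain, were lower at 1000 µM, and DGAT1 was higher at 100 µM. DGAT1 had 48.2, 48.7 and 34.8 CPM in control, 44.3 to 54.9 CPM between 0.01 and 1 µM, 57.1, 53.4 and 46.5 CPM at 10 µM and 85.2, 84.0 and 83.2 CPM at 100 µM. At 1000 µM it had 23.8, 20.7 and 37.4 CPM, with the set C library inside the control range and those of set B under it. The changes were 0.94 ± 0.161 at 100 µM (adjusted p = 1.06e-04) and -0.69 ± 0.163 at 1000 µM (adjusted p = 0.00129). With library set as a term the rise was 0.67 ± 0.268 and not called (adjusted p = 0.0996), and the fall was -0.88 ± 0.256 and called. Between 100 and 1000 µM, DGAT1 fell by 1.91 ± 0.161 in set B and by 1.17 ± 0.177 in set C, and 11.1% of its exon bases are shared with other genes. DGAT2 had 64.2, 65.4 and 55.0 CPM in control and 63.8 to 69.5 CPM between 0.01 and 1 µM. It had 71.3, 67.1 and 66.3 CPM at 10 µM, 55.5, 63.9 and 53.5 CPM at 100 µM, and 28.96, 31.1 and 31.0 CPM at 1000 µM. All 3 libraries at 1000 µM lay under control (log2 -1.02 ± 0.081, adjusted p = 2.96e-09, or -0.91 ± 0.135 with library set as a term).

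**Figure D3:**
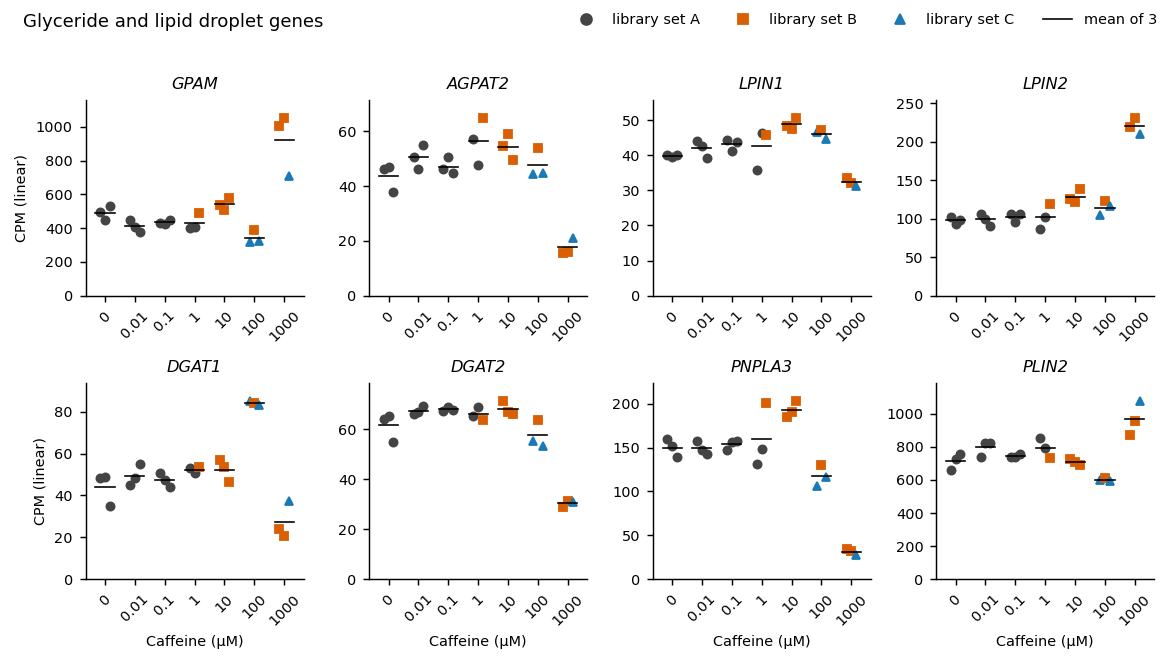
CPM (linear axis from 0) of 8 glyceride and lipid droplet genes in each of the 21 libraries, by caffeine dose in µM, with library sets A, B and C as symbols and the mean of 3 as a bar. GPAM, LPIN2 and PLIN2 are above all control libraries at 1000 µM, and AGPAT2, LPIN1, DGAT2 and PNPLA3 are below all of them.

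Genes of lipolysis, droplets and export were split. Of 7, PLIN2 was called higher at 1000 µM and PNPLA3, PLIN3 and CIDEB lower, while PNPLA2, MTTP and TM6SF2 were not called with all libraries. Of all features, 57.6% were called there, 28.5% higher and 29.1% lower. PNPLA3, a lipid droplet hydrolase and acyltransferase, had 160, 152 and 139 CPM in control, 131 to 201 CPM between 0.01 and 1 µM, 185, 190.3 and 203 CPM at 10 µM and 107, 130.1 and 116 CPM at 100 µM. It stood at 34.2, 32.4 and 27.1 CPM at 1000 µM, under all other libraries in both sets. The highest of the 1 µM libraries, replicate 3, is the one in set B. PNPLA3 was 4.80-fold lower than control at 1000 µM (log2 -2.26 ± 0.130, adjusted p = 3.45e-11), with -2.71 ± 0.128 with library set as a term and -2.53 ± 0.090 against 10 µM within set B. At 100 µM it was lower by 0.35 ± 0.123 (adjusted p = 0.0256), or -0.71 ± 0.137 with library set as a term. Without control replicate 1 or 2 or 100 µM replicate 1 or 3, that adjusted p ran from 0.0614 to 0.111.

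PLIN2, the main coat protein of hepatocyte lipid droplets, had 662, 726 and 758 CPM in control, 732 to 852 CPM between 0.01 and 1 µM and 724, 709 and 690.2 CPM at 10 µM. It had 601, 611 and 591 CPM at 100 µM, under control, and 874, 955 and 1078 CPM at 1000 µM, above control. The changes were -0.25 ± 0.082 (adjusted p = 0.0172) and 0.44 ± 0.082 (adjusted p = 1.45e-04). In the fit with library set as a term the first was not called (-0.15, adjusted p = 0.52) and the second was (0.57 ± 0.133). It also lost the call at 100 µM without control replicate 3 (adjusted p = 0.0816) or 100 µM replicate 3 (adjusted p = 0.0556).

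PLIN3, a coat protein of small nascent droplets, had 235, 214 and 150 CPM in control and 175 to 271 CPM between 0.01 and 1 µM, the lowest of these being 1 µM replicate 3 in set B. It had 154, 159 and 143 CPM at 10 µM, 94.8, 133 and 95.7 CPM at 100 µM and 94.8, 94.8 and 97.0 CPM at 1000 µM. Against control it was lower at 100 µM (-0.89 ± 0.154) and at 1000 µM (-1.06 ± 0.155, adjusted p = 9.08e-06). With library set as a term neither was called (-0.30, adjusted p = 0.456, and -0.53, adjusted p = 0.0834), and 17.8% of its exon bases are shared with an antisense gene.

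PNPLA2, the adipose triglyceride lipase that starts lipolysis, turned direction when 1 library was left out. It shares 10.4% of its exon bases with another gene. It had 93.8, 92.6 and 63.2 CPM in control, 64.8 to 119 CPM between 0.01 and 1 µM, 57.0, 61.0 and 53.2 CPM at 10 µM and 65.3, 56.2 and 68.1 CPM at 100 µM. At 1000 µM the set B libraries had 45.9 and 47.1 CPM and the set C library 104 CPM. The change at 1000 µM was -0.35 ± 0.251 (adjusted p = 0.249) and, without that set C library, -0.85 and called. From 100 to 1000 µM the value was 0.05 ± 0.252 with all libraries, -0.45 (adjusted p = 0.0454) without 1000 µM replicate 3, -0.27 ± 0.192 inside set B and 0.64 ± 0.190 inside set C, of which the last was called. The set C value rests on that same library, at 104 CPM against 65.3 and 68.1 CPM, and is no separate evidence of a rise. The difference between the sets had an adjusted p of 0.137.

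MTTP, the transfer protein that loads lipid onto apolipoprotein B, had 140, 133 and 180 CPM in control, 117 to 140 CPM between 0.01 and 1 µM, 148, 147 and 156 CPM at 10 µM, 120, 126 and 122 CPM at 100 µM and 140.0, 150 and 121 CPM at 1000 µM. Control replicate 3 was the highest of all 21. The call at 100 µM (-0.30 ± 0.100, adjusted p = 0.0192) ended without that library (-0.14, adjusted p = 0.203), without 100 µM replicate 1 or 3 (adjusted p = 0.0583 and 0.052) and with library set as a term (adjusted p = 0.434). At 1000 µM MTTP was not called (-0.14 ± 0.100, 95% interval -0.34 to 0.06). CIDEB, which acts in lipoprotein lipidation and droplet fusion, was called lower at 1000 µM (-0.62 ± 0.16, adjusted p = 0.00271, or -0.49 ± 0.144 and called with library set as a term), but 100.0% of its annotated exon bases are shared with NOP9 or LTB4R2, so its counts cannot be assigned to it with confidence. TM6SF2, a factor of lipoprotein export, stood at 0.536 to 1.58 CPM across the 21 libraries, was the single tested member not called in the joint test of 6 doses, and shares 46.7% of its exon bases with another gene of the same strand. The 1000 µM libraries had 0.536, 0.957 and 1.58 CPM, the last in set C, and the value of -0.28 ± 0.291 (adjusted p = 0.422) became -0.73 and called (adjusted p = 0.0293) without that set C library, replicate 3.

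**Figure D4:**
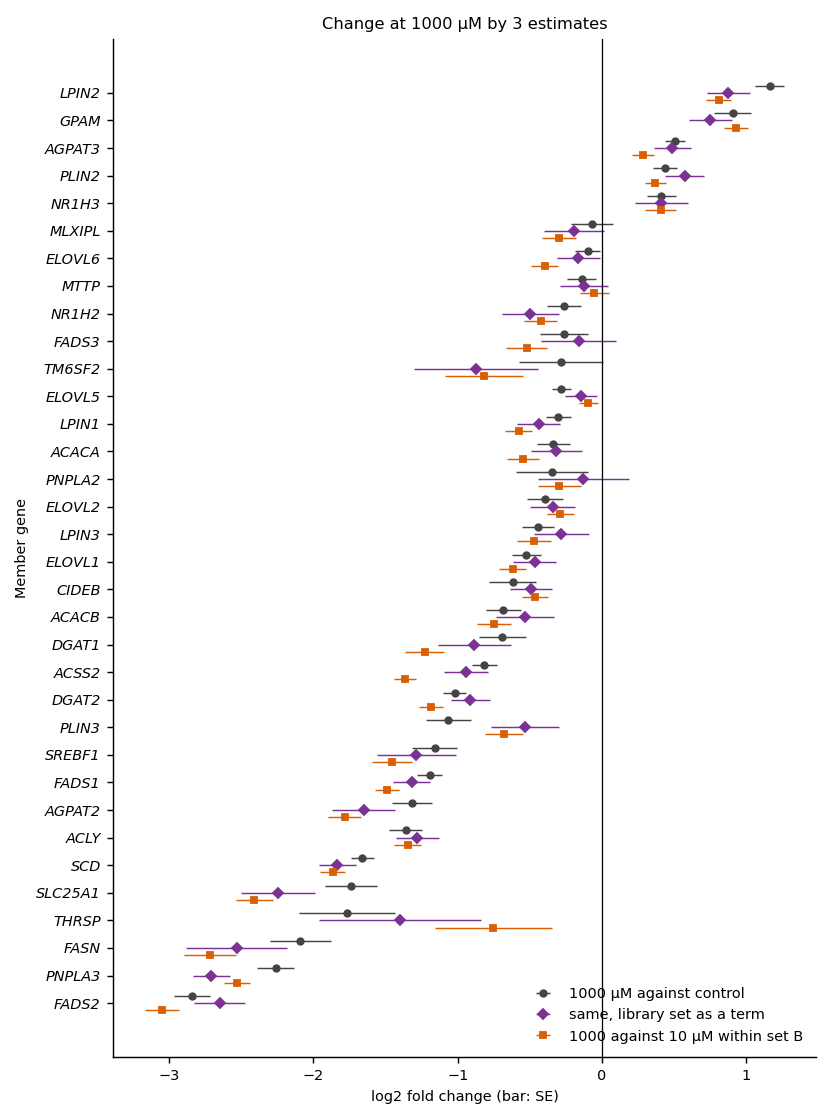
Log2 fold change (x axis, bars are SE) of each of the 34 tested members at 1000 µM against control, the same with library set as a term, and 1000 against 10 µM within library set B. FADS2, PNPLA3, FASN, SLC25A1 and SCD lie at -1.66 or below by all 3 estimates, and LPIN2 and GPAM lie at 0.75 or above.

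Inside set B, with 2 libraries at 1000 µM against 3 at 10 µM, 30 of 34 members were called, 25 lower and 5 higher, where 60.1% of all features were called (30.4% lower and 29.7% higher). In this comparison no set difference enters. FADS2 was lower by 3.05 ± 0.115, FASN by 2.71 ± 0.181, PNPLA3 by 2.53 ± 0.090, SLC25A1 by 2.41 ± 0.127, SCD by 1.87 ± 0.087 and AGPAT2 by 1.78 ± 0.116 on the log2 scale. GPAM was higher by 0.93 ± 0.083 and LPIN2 by 0.81 ± 0.088. In the joint test of 6 doses 33 members were called, and 29 with library set as a term, where 73.6% and 59.8% of features were.

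Between 100 and 1000 µM, 24 of 34 members were called, 20 lower and 4 higher, where 44.0% of features were called (22.3% lower and 21.8% higher). Within set B, with 2 libraries at 1000 µM and 1 at 100 µM, 23 members were called, against 43.2% of features (23.2% lower and 20.0% higher). Within set C, with 1 and 2 libraries, 22 were called, against 26.4% of features (13.1% lower and 13.2% higher). A lone library in an arm has no spread of its own and is taken to vary like the other groups, so each call in these comparisons rests on that assumption. The 2 comparisons share no library. Both gave lower values for ACACA, ACLY, ACSS2, AGPAT2, DGAT1, DGAT2, ELOVL1, ELOVL6, FADS1, FADS2, FASN, LPIN1, PNPLA3, SCD, SLC25A1 and SREBF1, and higher values for GPAM, LPIN2 and PLIN2. These are the members called in the same direction in both under that assumption. The share of all features called so was not computed.

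The size of the fall differed in value between the sets for some of these genes. FASN fell by 2.58 ± 0.209 in set B and by 1.57 ± 0.234 in set C, SLC25A1 fell by 2.22 ± 0.150 and 1.37 ± 0.166, and ACSS2 fell by 2.18 ± 0.095 and 1.69 ± 0.109. SCD changed by -2.05 ± 0.105 and -2.001 ± 0.121, FADS1 fell by 1.72 ± 0.102 and 1.76 ± 0.116, and PNPLA3 by 1.97 ± 0.105 and 2.04 ± 0.123. The test of the difference between the sets called 0 of 34 members, where 0.0947% of features were called, and 9 members had an unadjusted p under 0.05, as did 16.2% of features. With no filter on low counts, and again without control replicate 3, the same test called FASN, PNPLA2, SLC25A1, SREBF1, DGAT1, AGPAT2, PLIN3, ACSS2 and FADS3, each with a lower value in set B than in set C.

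**Figure D5:**
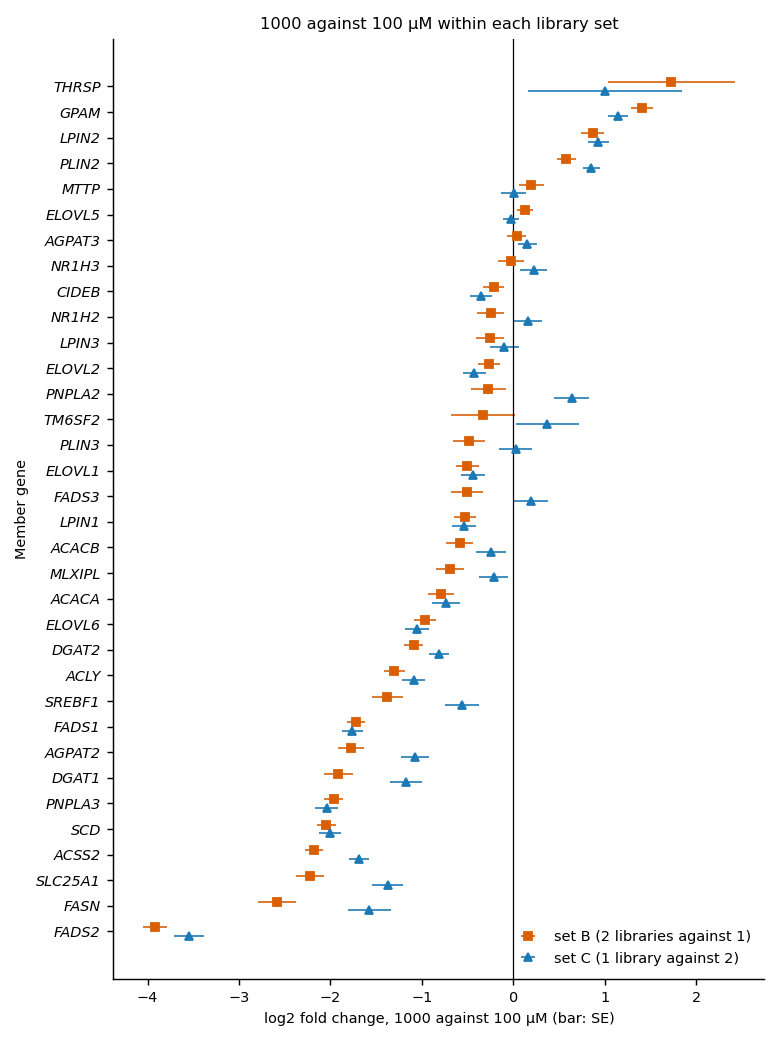
Log2 fold change between 100 and 1000 µM (x axis, bars are SE) of each tested member inside library set B (squares) and inside library set C (triangles). FADS2 lies lowest in both, at -3.92 and -3.55, and GPAM, LPIN2 and PLIN2 lie to the right of 0 in both.

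Genes around these members were taken from lists written for the same pathway, and every such gene named as changed at 1000 µM, other than INSIG2, was also called in the same direction with library set as a term. Of 8 tested genes listed for the control of SREBP, SREBF2 itself among them, 5 were called higher at 1000 µM and 1 lower (4 and 1 with library set as a term). The lower one was SREBF2. SREBF2, the sterol-responsive sister of SREBF1, was lower by 1.08 ± 0.100 (adjusted p = 2.81e-08). MBTPS2, a protease that releases SREBP, was higher at 1.62 ± 0.100, TRIB1, whose loss raises hepatic lipogenesis, at 1.37 ± 0.108, PAQR3, a Golgi anchor of the SREBP escort complex, at 1.1 ± 0.114 and INSIG2, which holds SREBP in the endoplasmic reticulum, at 1.01 ± 0.163. In the fit with library set as a term the INSIG2 rise was not called (0.43, adjusted p = 0.0909). SCAP, the escort itself, was not called (-0.24 ± 0.124, adjusted p = 0.103).

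Of 8 tested partners and targets of the liver X receptors, 6 were called higher and 1 lower at 1000 µM (4 and 1 with library set as a term). LPCAT3, a phospholipid-remodelling target of these receptors, fell by 1.38 ± 0.090 (adjusted p = 2e-10), and SMPDL3A, another target, rose by 0.96 ± 0.106 after lying 0.58 under control at 100 µM (-0.58 ± 0.107), a fall not called with library set as a term (adjusted p = 0.183). ABCA1, the cholesterol efflux pump, was not called (0.31 ± 0.196, adjusted p = 0.187). Of 8 helpers and NADPH suppliers, 4 were called lower and 1 higher (2 and 0 with library set as a term). PKLR, the liver pyruvate kinase and a ChREBP target, fell by 2.26 ± 0.109 (adjusted p = 4.23e-12) and IDH1 by 1.11 ± 0.077. MID1IP1, the partner of THRSP, was not called (-0.22 ± 0.138, adjusted p = 0.193).

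Other acyltransferases and phosphatases of glycerolipids, listed with the glycerol-3-phosphate dehydrogenases GPD1 and GPD1L, also went both ways, with 6 of 13 tested called higher and 4 lower at 1000 µM (3 and 4 with library set as a term). GPAT3, a microsomal enzyme for the same step as GPAM, went from 13.2 ± 0.208 CPM in control and 12.4 ± 0.974 CPM at 100 µM to 53.6 ± 4.79 CPM at 1000 µM (SD, n = 3 each), a log2 rise of 2.02 ± 0.086 (adjusted p = 6.28e-13). MOGAT2, which acylates monoacylglycerol, fell by 1.08 ± 0.097, or 0.66 ± 0.117 with library set as a term. Of 12 acyl-CoA synthetases and carriers, 8 were called higher and 3 lower (5 and 4 with library set as a term). FABP1, the liver fatty acid binding protein, fell by 1.77 ± 0.140 and ACSS3, a mitochondrial short-chain synthetase, rose by 1.56 ± 0.081. Of 11 other elongation and desaturation genes, 4 were called lower and 1 higher (3 and 1 with library set as a term), with CYB5R3, the reductase that feeds electrons to desaturases, lower by 1.44 ± 0.207.

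Of 14 other droplet and lipase genes, 7 were called lower and 4 higher at 1000 µM (5 and 3 with library set as a term). CIDEC, a droplet fusion protein, fell by 2.07 ± 0.128, LIPA, the lysosomal acid lipase, by 1.93 ± 0.098 and PLIN4 by 1.14 ± 0.200. ABHD5, the activator of the PNPLA2 lipase, rose by 1.56 ± 0.106 and HSD17B11, a droplet-associated dehydrogenase, by 2.10 ± 0.138 (1.43 ± 0.154 with library set as a term). Of 12 genes of lipoprotein assembly, 4 were called higher and 5 lower (4 and 4 with library set as a term). APOB rose by 0.71 ± 0.123, SAR1B, a GTPase needed to export large lipoproteins, by 1.41 ± 0.119, and APOC3, an inhibitor of lipoprotein lipase, fell by 1.14 ± 0.177, or 1.81 ± 0.163 with library set as a term. Of 7 genes of mitochondrial fatty acid synthesis, 2 were called higher, ACSF3 at 2.08 ± 0.110 and NDUFAB1, the acyl carrier protein, at 1.21 ± 0.164, and 2 lower (2 and 0 with library set as a term). NDUFAB1 moved with library set: at 1 µM replicates 1 and 2 in set A had 47.5 and 41.8 CPM and replicate 3 in set B had 74.0 CPM, against 74.2 to 98.8 CPM at 1000 µM. With library set as a term its rise was 0.55 ± 0.188 (adjusted p = 0.0273). These shares of called genes stand beside 57.6% of all features, and 38.0% with library set as a term.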

How the data were processed

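The deposited values are unscaled whole-number read counts for each feature, and the submitters' processing notes name HISAT2, DESeq2 and build GRCh38. Counting tool, annotation and use of strand are not given in the sources used here. A further 21 sample columns match no sample and were left out. Totals ran from 23502519 to 44815552 counts per library, and precision is limited by 3 cultures per group. The members and lists were chosen with earlier results of these data known. All members could be named. CPM in each library (a range for the 9 libraries from 0.01 to 1 µM) were given for members called with a log2 fold change of 1 or more at 1000 µM (against control or 100 µM) and for 18 core genes, and up to 4 called genes per further list were named, with SREBF2, SCAP, MID1IP1 and ABCA1. A further gene of this rule is not reported here.

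Features passing filterByExpr (17951) were fitted in edgeR 4.0.16 (R 4.3.3) with TMM scaling, robust quasi-likelihood dispersion and a mean per dose group over all 21 libraries. The SE of a log2 fold change was its size over the square root of F, and CPM used TMM-scaled totals. Library sets came from average-linkage clustering of centred log2 counts of mitochondrial mRNAs, with the highest mean silhouette (0.571) at 3 clusters, and a second fit had a mean per dose and set. The fits were tested on simulated counts. Symbols were matched by identifier. Exon lengths, overlaps and coordinates were those of GENCODE 29, not necessarily the release behind the counts, and promoters those of RefSeq. Replicate pairs of a group differed by 3.48 or more in chi-square per feature, so none was a duplicate. Alternatives were DESeq2 size factors, DESeq2 1.42.0, limma-voom (limma 3.58.1), removing the filter, keeping features averaging 5 CPM or more, fitting control with a single dose, the replicate number as a block, set A alone, and each library left out.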

Additional observations from a re-analysis of the deposited data

How the results depend on the processing

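The 24 calls between 100 and 1000 µM and the 27 at 1000 µM stayed within 1.5 times under every alternative run. Other counts moved: at 0.01 µM from 0 to 1 with library set as a term and 2 with DESeq2; at 10 µM, in place of 5, they were 0 with library set as a term, 8 with DESeq2 and 9 with control and that dose alone; at 100 µM 8 in place of 18 with library set as a term; and for the difference between sets B and C from 0 to 9 with no filter. The median log2 fold change of the members at 10 µM went from 0.086 to 0.027 with library set as a term and 0.112 with no filter, and at 100 µM from -0.002 to -0.094 with library set as a term and 0.034 at a mean of at least 5 CPM. The cause was not tested.

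Leaving out 1 library gave 0 calls at 0.01, 0.1 and 1 µM and 1 to 10 at 10 µM (1 without 10 µM replicate 3, 2 without control replicate 2, 3 without control replicate 1, 10 without 1000 µM replicate 3). The range was 14 to 20 for 100 µM, 26 to 31 for 1000 µM, 22 to 25 between 100 and 1000 µM, 29 to 33 in the joint test, 27 to 31 between 10 and 1000 µM in set B, 21 to 26 and 18 to 22 between 100 and 1000 µM in sets B and C, and 0 to 9 for their difference (9 without control replicate 3). For the members' median, the lowest and highest values were 0.046 and 0.157 (10 µM), -0.057 and 0.058 (100 µM), -0.697 and -0.438 (1000 µM, the former without replicate 3 of that dose), and -0.599 and -0.431 (1000 against 100 µM). Contrasts within a set that lost their sole library in an arm could not be estimated. Single genes were compared at 100 and 1000 µM against control and between these doses. Of their values, 2831 kept their side of the threshold without a called value changing sign, 24 of them with a change of sign in a value not called in either fit (FASN at 100 µM from 0.05 to -0.45 and SLC25A1 from 0.14 to -0.44 with library set as a term were the largest). A call was lost by 57 and gained by 29, and 1 value that was not called gained a call of the opposite sign: PNPLA2 between 100 and 1000 µM, at -0.445 without 1000 µM replicate 3 and at up to 0.257 without 1000 µM replicate 1, against 0.05 with all libraries. Calls between 100 and 1000 µM that ended without 1 library were CIDEB, ACACB and THRSP. Calls were gained without 1 library by ACLY, LPIN1, LPIN2, LPIN3, NR1H2 and PNPLA2 at 100 µM, by FADS3, MLXIPL, NR1H2, PNPLA2 and TM6SF2 at 1000 µM, and by FADS3 and LPIN3 between these doses.

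Replicate numbers did not pair the libraries: over 21 pairs of groups the correlation of same-numbered deviations ran from -0.108 to 0.152 and exceeded 0.1 in 1. With the replicate number as a block the counts were 0, 0, 0, 5, 19 and 27 from 0.01 to 1000 µM, 24 between 100 and 1000 µM, 31 in the joint test, 30 between 10 and 1000 µM in set B, 23 and 21 between 100 and 1000 µM in sets B and C, and 0 for their difference. THRSP and TM6SF2, at about 1 CPM, and ME1 are limited by depth.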
